A study of Mus musculus with 4 samples.

Results

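Arterial coronary endothelium was examined in ventricles of mouse embryos at embryonic day 14.5 by single-cell RNA sequencing that counts unique molecular identifiers (UMIs) from the 3' ends of polyadenylated RNA. The 217 cells among 45551 barcodes were selected on measured values: 1000 to 7000 detected genes, at most 10% mitochondrial UMIs, under 0.5% of UMIs from cardiomyocyte genes (Tnnt2, Actc1, Tnnc1 and Ttn), at least 4 UMIs of Pecam1, Cdh5, Emcn and Egfl7, Fabp4 at 0.1% of UMIs or more, at most 1 UMI of Top2a and Mki67, and at least 2 UMIs of Gja4 and Gja5. Control embryos were Tie2Cre;Ets1 fl/+ and eKO embryos Tie2Cre;Ets1 fl/fl, so every embryo carried the Tie2Cre transgene, which acts in endothelium and in the blood lineage, and at least 1 floxed Ets1 allele. Each genotype had 2 libraries, each made from the pooled ventricles of 3 untreated embryos on a C57BL/6 background, of both sexes and not typed for sex, after trypsin digestion, and all 4 libraries carry the same batch label. A replicate is therefore a pool, and the spread between single embryos was not measured. The comparison group in the same libraries was 508 non-cycling Fabp4 cells with no UMI of Gja4 or Gja5, called lacking cells here. Where 4 values are given, they are in the order control 1, control 2, eKO 1 and eKO 2, and levels are CPM, counts of a gene per 1000000 summed UMIs of a library's cells.

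Coronary arteries form within a plexus of small vessels that spreads over and through the embryonic ventricle, as some endothelial cells leave the cell cycle and take on arterial features before blood flow is established in them. Gja4 and Gja5 encode connexins, the proteins of gap junctions, and mark arterial endothelium, while Fabp4, a fatty acid-binding protein, marks coronary vessels and is scarce in the endocardium. Notch signalling, SoxF transcription factors, VEGF and the chemokine Cxcl12 with its receptor Cxcr4 take part in arterial development, and Ets1 belongs to the ETS family of transcription factors that bind many endothelial enhancers.

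The libraries held 124140739, 76931208, 95131419 and 102872196 UMIs in 12641, 7949, 10010 and 14951 barcodes. Arterial cells numbered 68, 37, 45 and 67, with summed counts of 987377, 497197, 457984 and 552973 UMIs and a median of 11837.5, 11344, 8632 and 6765 UMIs per cell. The eKO cells were thus shallower than the control cells, those of eKO 2 most of all, and lacking cells (118, 53, 102 and 235) were shallower than arterial cells in each library, at 8433, 8560, 8188.5 and 4895 UMIs. By Xist and Y-linked genes, control 1 held 58 male and 0 female arterial cells, control 2 held 10 and 22, eKO 1 held 24 and 15, and eKO 2 held 0 and 56, with 10, 5, 6 and 11 unassigned. Control 1 and eKO 2 therefore stood at opposite ends in sex, so that sex and genotype cannot be fully told apart. Of the arterial barcodes, 2 carried a sequence also seen in another library (382 of all barcodes did), and 6 were among the highest doublet scores.

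Gja4 (ENSMUSG00000050234) and Gja5 (ENSMUSG00000057123), whose counts chose the members, were described without a test. Gene identifiers and positions are those of GENCODE vM21 on GRCm38. Gja4 stood at 501, 509, 513 and 678 CPM and Gja5 at 235, 193, 175 and 125 CPM in arterial cells. Gja4 was thus highest and Gja5 lowest in eKO 2, with Gja5 UMIs per Gja4 UMI of 0.469, 0.379, 0.340 and 0.184. The limit of 2 connexin UMIs was the same at every depth, and arterial cells of eKO 2 were the shallowest. The part of this limit in the connexin levels was not tested. Most arterial cells carried both connexins: 137 had both, 76 had Gja4 alone and 4 had Gja5 alone. Fabp4 (ENSMUSG00000062515) stood at 6267, 5159, 7291 and 9255 CPM in arterial cells and 7317, 5581, 6967 and 7796 CPM in lacking cells. The endothelial gate genes Pecam1 and Cdh5, of the junctions between endothelial cells, were at 732, 833, 729 and 684 CPM and at 929.7, 792, 707 and 600 CPM.

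Stray connexin UMIs were rare in immune cells. Of 154, 84, 200 and 326 immune cells, chosen to hold no endothelial UMIs, which lowers the background seen, 1, 0, 1 and 1 held 2 or more UMIs of Gja4 and Gja5 (0.649, 0, 0.50 and 0.307%, where 0 of 84 allows up to 3.57%). Non-cycling Fabp4 cells held that many in 34.0, 38.1, 26.3 and 19.9%. Immune cells were less deep than arterial cells, at medians of 6227, 6711.5, 5465.5 and 3714 UMIs.

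Arterial genes outside the rule were compared on both sides of the limit of 2 connexin UMIs, as a description with no test, in 508 cells with 0 UMIs, 79 with 1, 44 with exactly 2 and all 217 arterial cells. Each level pools all libraries, whose shares differed between these classes, with 14, 7, 24 and 34 cells at 1 UMI. The part of this mix in the steps was not tested. Hey1, a transcription factor induced by Notch, measured 35.2 CPM at 0 UMIs, 83.2 at 1, 112 at 2 and 189 at 2 or more. Cxcl12, the chemokine ligand of Cxcr4, measured 10.4 CPM at 0 UMIs, 31.2 at 1, 64.1 at 2 and 204 at 2 or more. Both were higher at each step of connexin UMIs, and cells just outside the limit stood between lacking and arterial cells. Not every arterial gene followed each step: Sox17 was no higher at 1 UMI (114 CPM) than at 0 (115), Unc5b was alike at 1 and 2 (193 and 195 CPM), and Dll4 alike at 2 and at 2 or more (169 and 170.3 CPM). Aplnr, the apelin receptor of veins and sprouting capillaries, measured 100.3 CPM at 0 UMIs, 22.3 at 1, 9.50 at 2 and 6.41 at 2 or more. Rgcc, a regulator of the cell cycle found in capillaries, measured 180.1 CPM at 0 UMIs, 117 at 1, 116 at 2 and 46.1 at 2 or more, so that cells at exactly 1 UMI held far less Aplnr and somewhat less Rgcc than cells at 0. Nr2f2, a transcription factor of venous identity, was as high at 1 UMI as at 0, with 111 CPM at 0 UMIs, 111 at 1, 21.4 at 2 and 18 at 2 or more.

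**Figure D1:**
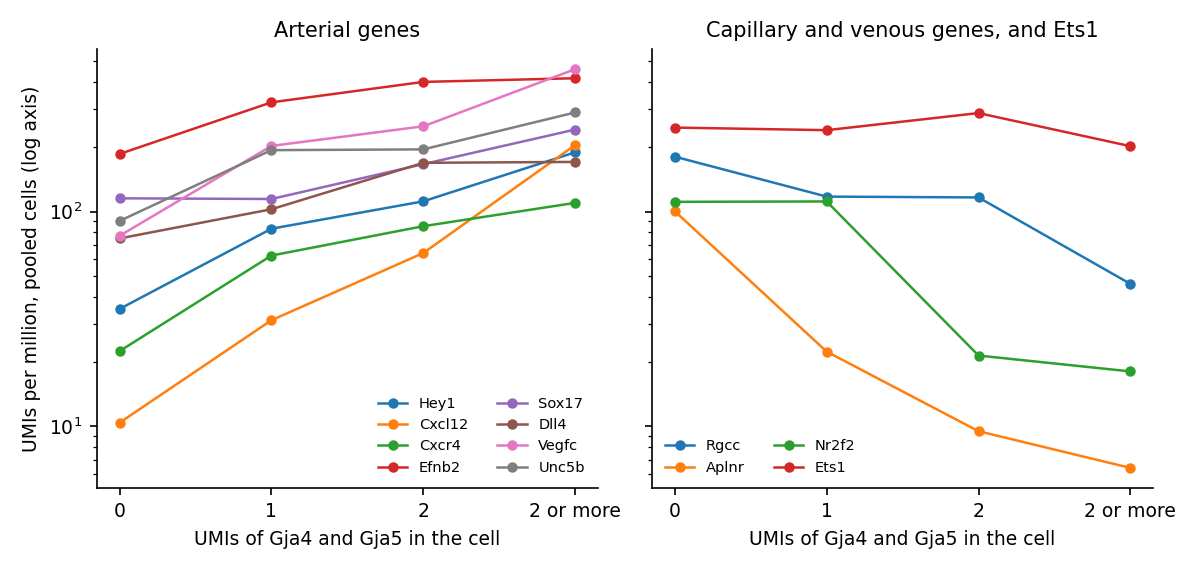
Summed level in CPM (logarithmic axis) of genes outside the rule in Fabp4 cells with 0, 1, exactly 2, and 2 or more UMIs of Gja4 and Gja5, with arterial genes on the left and Rgcc, Aplnr, Nr2f2 and Ets1 on the right. Each point pools the cells of all 4 libraries (508, 79, 44 and 217 cells), so no error bar is drawn, and Cxcl12 ran from 10.4 to 204 CPM.

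The arterial label was checked with 10 markers that the rule did not use, in cells thinned to 4000 UMIs so that depth was equal. At least 3 of the 10 were found in 79.1, 83.8, 86.4 and 77.4% of arterial cells (53 of 67, 31 of 37, 38 of 44 and 41 of 53) and in 21.3, 28.6, 27.0 and 17.2% of lacking cells (23 of 108, 14 of 49, 24 of 89 and 26 of 151). The lowest arterial library thus lay far above the highest library of lacking cells. Efnb2, the ephrin ligand on arterial cells, was seen in a mean of 72.6% of thinned arterial cells and 43.2% of lacking cells, and Unc5b, a netrin receptor of arteries and tip cells, in 65.6 and 25.4%. Bmx, an arterial kinase, was seen in only 8.64 and 5.02%. Of markers of other endothelium, Rgcc, Aplnr, Nr2f2, Dab2, Ephb4, Nrp2 and Nfatc1 had a lower mean share in arterial than in lacking cells. The capillary genes Cd36 (41.9 and 45.1%) and Gpihbp1 (45.2 and 38.9%) hardly separated the classes. Npr3, an endocardial marker, was seen in 17.3 and 9.12%, and in 8.96, 10.8, 25.0 and 24.5% of arterial cells by library.

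Arterial cells were set against lacking cells of the same libraries to find which genes, connexins aside, go with arterial state. Most listed genes of arterial identity, several Notch ligands and targets, and the SoxF factors were higher in arterial cells, and some genes of veins and capillaries and most listed genes of DNA replication were lower. Hes5, a Notch target nearly absent from lacking cells, Dkk2 and Cxcl12 were among the largest contrasts. Of 7358 genes tested, 1617 passed (22.0%), 865 higher in arterial cells (11.8%) and 752 lower (10.2%), by the quasi-likelihood test of edgeR with a term for library (Benjamini-Hochberg threshold 0.05). Of all genes tested, 2939 (39.9%) differed in the same direction in all 4 libraries. DESeq2 called 633, a fit without the library term 902 and a fit on cells thinned to 4000 UMIs 830 of only 3993 genes tested. Scaling by total count called 1668 and turned the split to 692 higher and 976 lower. Depth per cell differed between the classes, and its part in the results was not tested beyond the thinned cells. Lower genes spanned a median of 64091 bases, higher ones 15380 and all tested genes 28762, and the part of gene length was not tested.

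Of the 30 genes listed for arterial identity, 26 were tested, 22 were higher in arterial cells and 0 lower, with a median log2 of 1.27 beside -0.0067 for all genes tested. Cxcl12 (ENSMUSG00000061353, chr6:117168535-117181367, plus strand) measured 192, 309.7, 194 and 137 CPM in arterial cells and 8.18, 8.77, 17.4 and 8.28 CPM in lacking cells (log2 4.24 ± 0.20 SE, edgeR adjusted p = 4.50e-14, higher in 4 of 4 libraries). The ranges of the classes did not overlap. Its receptor Cxcr4, by which coronary cells sense the ligand, measured 106, 101, 116 and 119 CPM against 12.7, 24.1, 24.3 and 28.6 CPM (log2 2.42 ± 0.19 SE, edgeR adjusted p = 6.42e-10, 4 of 4). Vegfc (ENSMUSG00000031520, chr8:54077606-54187096, plus strand), a growth factor for lymphatic and coronary vessels, measured 506, 698, 288 and 306 CPM against 91.8, 107, 74.2 and 56.5 CPM (log2 2.47 ± 0.12 SE, edgeR adjusted p = 7.67e-14, 4 of 4), highest in the control libraries. Of 13 chemokine and guidance genes tested, 6 were higher (Cxcl12, Unc5b, Cxcr4, Efnb2, Sema3g and Ackr3) and 2 lower (Slit2 and Robo1), with a median log2 of 0.10. Unc5b measured 327, 309.7, 258 and 229.7 against 117, 81.1, 102 and 64.0 CPM (log2 1.69 ± 0.13 SE, edgeR adjusted p = 1.92e-10, 4 of 4), and Sema3g, a semaphorin made by arterial endothelium, 77.0, 86.5, 76.4 and 30.7 against 20.0, 8.77, 10.4 and 10.5 CPM (log2 2.33 ± 0.25 SE, edgeR adjusted p = 9.41e-08, 4 of 4). For these genes, too, every arterial library lay above every library of lacking cells. Dkk2, a secreted modulator of Wnt signalling, was near 0 in lacking cells, at 76.0, 98.6, 78.6 and 65.1 against 4.55, 0, 0 and 4.52 CPM (log2 4.71 ± 0.35 SE, edgeR adjusted p = 1.95e-10, 4 of 4).

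Notch ligands and several Notch targets were higher in arterial cells. Of 25 listed, 17 were tested, 9 were higher in arterial cells (Hey1, Hes5, Dll4, Jag1, Jag2, Nrarp, Notch1, Notch4 and Mfng) and 3 lower (Maml3, Maml2 and Hes1), with a median log2 of 0.46. The target Hes5 (ENSMUSG00000048001, chr4:154960923-154962371, plus strand) measured 83.0, 36.2, 26.2 and 19.9 CPM in arterial cells against 0, 0, 0 and 1.51 CPM in lacking cells, where 2 UMIs were counted in all (92.3-fold, 95% interval 25.0 to 771, edgeR adjusted p = 3.66e-09, 4 of 4 libraries). Such intervals and limits cover counting error only. Hes5 was highest in control 1 and lowest in eKO 2. Hey1 (ENSMUSG00000040289, chr3:8663359-8667256, minus strand) measured 177, 179, 214 and 197 CPM against 32.7, 26.3, 47.5 and 32.4 CPM (log2 2.53 ± 0.15 SE, edgeR adjusted p = 2.51e-12, 4 of 4), with little spread among arterial libraries. The ligand Dll4 (ENSMUSG00000027314, chr2:119325784-119335962, plus strand) measured 194, 189, 135 and 139 CPM against 108, 101, 53.3 and 52.7 CPM (log2 1.16 ± 0.14 SE, edgeR adjusted p = 9.66e-07, 4 of 4), and Jag1, a ligand of the same receptors, 46.6, 62.3, 24.0 and 39.8 CPM against 11.8, 0, 8.12 and 8.28 CPM (log2 2.41 ± 0.34 SE, edgeR adjusted p = 8.56e-06, 4 of 4). Maml3, a coactivator of the Notch complex, went the other way, at 78.0, 70.4, 80.8 and 66.9 against 185, 136, 205 and 165 CPM (log2 -1.15 ± 0.14 SE, edgeR adjusted p = 4.80e-07, lower in 4 of 4).

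Transcription factors of the SoxF group were higher and several ETS factors lower in arterial cells. Of 19 listed SoxF and ETS genes, 17 were tested, 3 were higher (Sox7, Sox17 and Sox18) and 4 lower (Etv6, Ets1, Fli1 and Elk4), with a median log2 of -0.22. Sox17, which acts in arterial specification, measured 243, 229, 238 and 249.6 CPM in arterial cells against 140.0, 65.8, 88.1 and 129 CPM in lacking cells (log2 1.22 ± 0.14 SE, edgeR adjusted p = 2.17e-07, 4 of 4 libraries), and Sox7 measured 215, 289.6, 259.8 and 221 against 116, 107, 104 and 94.8 CPM (log2 1.26 ± 0.12 SE, edgeR adjusted p = 2.68e-08, 4 of 4). Arterial levels of Sox17 hardly varied between libraries. Ets1 measured 264, 251, 120.1 and 112 CPM against 396, 324, 203 and 123 CPM (log2 -0.41 ± 0.12 SE, edgeR adjusted p = 0.0125, lower in 4 of 4). The ranges of the classes overlapped, and both were lower in the eKO libraries. The calls did not hold for Ets1 without control 1 (edgeR adjusted p = 0.0993) or eKO 1 (0.0886), for Fli1 without control 1 (0.106) or eKO 1 (0.0543) and for Sox18 without control 2 (0.0854) or eKO 2 (0.464), and those of Ets1 (DESeq2 adjusted p = 0.151) and Sox18 also by DESeq2.

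Venous and capillary genes were found on both sides. Of 15 venous genes, 10 were tested, 5 were lower and 2 higher (median log2 -0.69), and of 20 capillary genes, 15 were tested, 5 higher and 5 lower (median 0.044). Aplnr (ENSMUSG00000044338, chr2:85136225-85139923, plus strand) measured 5.06, 8.05, 2.18 and 10.9 CPM in arterial cells against 120.0, 138, 103 and 69.3 CPM in lacking cells (log2 -3.97 ± 0.28 SE, edgeR adjusted p = 6.30e-11, lower in 4 of 4 libraries). Nr2f2 (ENSMUSG00000030551, chr7:70351944-70366735, minus strand) measured 12.2, 12.1, 37.1 and 18.1 CPM against 99.1, 114, 99.7 and 127 CPM (log2 -2.48 ± 0.23 SE, edgeR adjusted p = 1.10e-08, 4 of 4), and Nrp2, a coreceptor for VEGF-C in veins and lymphatics, 62.8, 74.4, 26.2 and 27.1 CPM against 295, 235, 162 and 176 CPM (log2 -2.16 ± 0.16 SE, edgeR adjusted p = 1.29e-10, 4 of 4). All 3 were low in every arterial library. Vwf, a clotting factor stored in endothelium and listed as venous, was higher in arterial cells, at 70.9, 105, 83.0 and 79.6 CPM against 15.5, 13.2, 12.8 and 13.5 CPM (log2 2.61 ± 0.21 SE, edgeR adjusted p = 9.72e-10, 4 of 4). Among capillary genes, Esm1, a proteoglycan of sprouting cells, was higher at 41.5, 64.4, 65.5 and 139 against 25.5, 19.7, 4.64 and 18.1 CPM (log2 2.22 ± 0.30 SE, edgeR adjusted p = 3.80e-06, 4 of 4), and Rgcc lower at 66.8, 18.1, 28.4 and 48.8 against 269, 103, 163 and 144 CPM (log2 -1.97 ± 0.17 SE, edgeR adjusted p = 2.03e-09, 4 of 4). Of 15 endocardial genes, 10 were tested, 1 was higher (Vwf) and 4 lower.

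**Figure D2:**
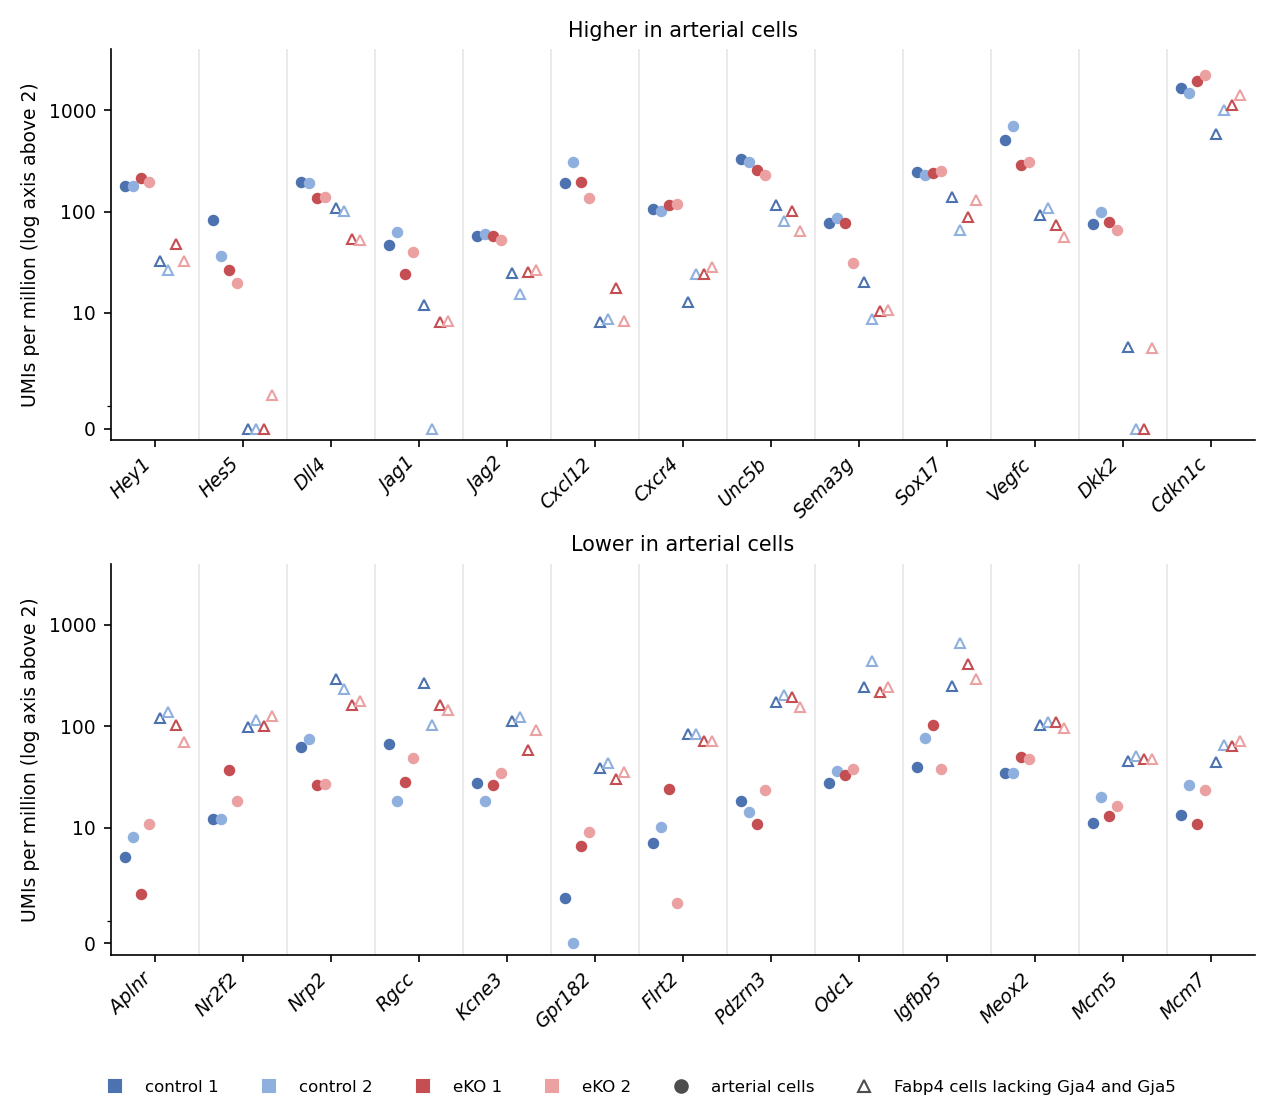
Level in CPM of genes higher (top) and lower (bottom) in arterial cells, on an axis that is logarithmic above 2, with filled circles for arterial cells and open triangles for lacking cells. Each point is the summed cells of 1 library (2 control and 2 eKO libraries, no error bars), such as Cxcl12 at 192, 309.7, 194 and 137 CPM in arterial cells.

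Most listed genes of DNA replication were lower in arterial cells. Cells with more than 1 UMI of Top2a and Mki67 had been removed from both classes. Mki67, itself a gene of the rule, still stood at 2.03, 2.01, 4.37 and 10.9 CPM in arterial cells and 14.5, 19.7, 12.8 and 23.3 CPM in lacking cells. A limit fixed in UMIs is stricter in deeper cells, and arterial cells were the deeper class. The fit on thinned cells kept the cells chosen before thinning. The part of this limit, and of cells still in cycle, in the lower levels was not tested. Of 19 S phase genes, 16 were tested, 14 were lower and 0 higher, with a median log2 of -1.21. Mcm5, a subunit of the replicative helicase, measured 11.1, 20.1, 13.1 and 16.3 CPM in arterial cells against 45.5, 50.4, 47.5 and 47.4 CPM in lacking cells (log2 -1.63 ± 0.25 SE, edgeR adjusted p = 2.37e-05, lower in 4 of 4 libraries), and Mcm3, another subunit, 59.8, 56.3, 54.6 and 77.8 CPM against 114, 116, 132 and 141 CPM (log2 -0.93 ± 0.15 SE, edgeR adjusted p = 3.78e-05, 4 of 4). No arterial library reached the lowest library of lacking cells for either. Odc1, the first enzyme of polyamine synthesis, was also low, at 27.3, 36.2, 32.8 and 38.0 CPM against 245, 436, 217 and 245 CPM (log2 -3.00 ± 0.16 SE, edgeR adjusted p = 6.10e-13, 4 of 4). Cdkn1c (ENSMUSG00000037664, chr7:143458339-143461050, minus strand), an imprinted inhibitor of cyclin-dependent kinases, was high, at 1666, 1494, 1945 and 2212 CPM against 588, 1006, 1122 and 1418 CPM (log2 0.95 ± 0.10 SE, edgeR adjusted p = 1.05e-07, 4 of 4). Within each library Cdkn1c was higher in arterial cells, and in both classes eKO 2 was highest. Of 14 cell cycle inhibitors, 8 were tested and Cdkn1c alone passed.

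Genes of BMP and ALK1 signalling, a pathway of vessel stability, were found on both sides, with 14 of 18 tested, 6 higher (Tmem100, Id1, Smad7, Id3, Smad6 and Acvrl1) and 4 lower in arterial cells (Smad1, Bmp6, Smad5 and Bmpr2). Those that were higher include the receptor Acvrl1, at 72.9, 60.3, 65.5 and 88.6 CPM against 43.6, 35.1, 15.1 and 18.8 CPM (log2 1.47 ± 0.24 SE, edgeR adjusted p = 4.70e-05, 4 of 4 libraries), and its target Tmem100, a membrane protein, at 78.0, 46.3, 83.0 and 85.0 CPM against 13.6, 19.7, 27.8 and 26.3 CPM (log2 1.89 ± 0.21 SE, edgeR adjusted p = 2.15e-07, 4 of 4). Id1, an inhibitor of basic helix-loop-helix factors induced by BMP, measured 318, 314, 297 and 486 CPM against 212, 156, 140.3 and 140.0 CPM (log2 1.19 ± 0.14 SE, edgeR adjusted p = 5.74e-07, 4 of 4). The receptor and both targets were higher in every arterial library than in any library of lacking cells. Piezo2, a mechanosensitive channel on the list of flow-response genes, was lower, at 90.1, 109, 59.0 and 32.6 against 289, 311, 257 and 175 CPM (log2 -1.78 ± 0.14 SE, edgeR adjusted p = 5.50e-10, 4 of 4), and of the 12 flow genes tested 4 were higher and 3 lower.

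Of 15 basement membrane genes tested, 4 were higher in arterial cells and 2 lower (median log2 -0.0017), and of 12 tested genes of elastic and arterial wall matrix 1 was higher and 2 lower. Col18a1 (ENSMUSG00000001435, chr10:77052178-77166548, minus strand), a basement membrane collagen, measured 1029, 1100.2, 1111 and 799 CPM in arterial cells against 616, 566, 623 and 486 CPM in lacking cells (log2 0.88 ± 0.08 SE, edgeR adjusted p = 3.91e-09, 4 of 4 libraries), and Sparc, a collagen-binding matrix protein, 2697, 3031, 3867 and 4138 against 2249, 1964, 2269 and 2215 CPM (log2 0.71 ± 0.08 SE, edgeR adjusted p = 4.07e-07, 4 of 4). Kcnj8 and Abcc9, the pore and the regulatory subunit of an ATP-sensitive potassium channel and listed here as pericyte markers, were higher, with Kcnj8 at 158, 129, 214 and 139 CPM against 21.8, 21.9, 32.5 and 20.3 CPM (log2 2.82 ± 0.16 SE, edgeR adjusted p = 1.86e-12, 4 of 4). The other tested gene of that list of 12 did not pass, and summed levels of the list, led by Abcc9 at 242, 217, 227 and 204 CPM, were 449.7, 378, 472 and 391 CPM in arterial cells and 171, 96.4, 170.4 and 163 CPM in lacking cells. Abcc9 and Kcnj8 made up most of the arterial sum. Rgs5 and Higd1b of the list had no UMI in either class, and Myh11 and Cspg4 none in lacking cells. The connexin Gja1 was higher at 158, 177, 157 and 150.1 against 136, 116, 82.3 and 91.8 CPM (log2 0.65 ± 0.14 SE, edgeR adjusted p = 0.00107, 4 of 4). Meox2, a homeobox factor that acts with Tcf15 on fatty acid uptake, was lower at 34.4, 34.2, 50.2 and 47.0 against 102, 109.6, 109 and 95.6 CPM (log2 -1.26 ± 0.17 SE, edgeR adjusted p = 5.24e-06, 4 of 4). Of the 13 glycolysis genes tested 4 were higher, of the 51 nuclear genes of the respiratory chain 9 were higher, and 0 of either list were lower.

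Within arterial cells, those with Gja5 were compared with those that carried Gja4 alone, since Gja5 marks the more mature arterial state. Cells with Gja5 had more Cdkn1c and less Mgp, while calls of arterial identity genes depended on control 1. They numbered 45, 28, 30 and 38, beside 23, 9, 15 and 29 cells with Gja4 alone, or 66.2, 75.7, 66.7 and 56.7% of arterial cells. Of 4562 genes tested by edgeR with a library term, 73 passed (1.60%), 57 higher in Gja5 cells (1.25%) and 16 lower (0.351%). The higher ones spanned a median of 68339 bases, the lower ones 14383.5 and all tested genes 27416, and the part of gene length was not tested. Leaving out control 1 left 10 calls, DESeq2 made 7 and a fit without the library term 1, so most calls depended on control 1, on the tool and on the library term.

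Cdkn1c measured 2030.1, 1692, 2405 and 2405 CPM in cells with Gja5 and 815, 916, 1028 and 1894 CPM in cells with Gja4 alone (log2 0.92 ± 0.10 SE, edgeR adjusted p = 3.21e-10, higher in 4 of 4 libraries). Every library showed the step, smallest in eKO 2. Mgp (ENSMUSG00000030218, chr6:136872435-136875823, minus strand), an inhibitor of calcification and of BMP signals, measured 8.68, 13.5, 6.55 and 8.72 CPM in Gja5 cells and 142, 55.3, 111 and 62.2 CPM in Gja4-only cells (log2 -3.39 ± 0.35 SE, edgeR adjusted p = 3.21e-10, lower in 4 of 4). Its ranges did not overlap. Nkain2, a protein that binds a sodium pump subunit, measured 89.6, 181, 125 and 96.0 against 3.38, 55.3, 39.3 and 28.7 CPM (log2 2.12 ± 0.31 SE, edgeR adjusted p = 5.07e-06, 4 of 4), and Plxdc2, a membrane protein of tumour endothelium, 145, 221, 144 and 75.6 against 27.0, 86.9, 6.55 and 43.1 CPM (log2 1.87 ± 0.28 SE, edgeR adjusted p = 7.19e-06, 4 of 4). Vegfc measured 646, 742, 321 and 346 against 179, 568, 223 and 239 CPM (log2 0.86 ± 0.16 SE, edgeR adjusted p = 4.34e-04, 4 of 4), Tmem100 101, 51.3, 118 and 108 against 23.7, 31.6, 13.1 and 47.8 CPM (log2 1.72 ± 0.31 SE, edgeR adjusted p = 3.09e-04, 4 of 4), and Esm1 49.2, 81.0, 81.9 and 180.3 against 23.7, 15.8, 32.7 and 71.8 CPM (log2 1.37 ± 0.29 SE, edgeR adjusted p = 0.00295, 4 of 4). The calls were lost for Vegfc without control 1 (edgeR adjusted p = 0.492), for Tmem100 without control 1 (0.107) and for Esm1 without eKO 2 (0.0614). Of 23 arterial identity genes tested, 5 were higher and 0 lower (median log2 0.41 beside -0.0032 for all genes), but besides Vegfc the calls were lost for Mecom without control 1 (edgeR adjusted p = 0.606), for Dkk2 without control 1 (0.683) or eKO 1 (0.0590), for Tm4sf1 without control 1 (0.815) or eKO 1 (0.129) and for Igfbp3 without control 1 (0.575), eKO 1 (0.135) or eKO 2 (0.639), and DESeq2 called none of the 5 (adjusted p from 0.480 to 1.000). Without control 1 the log2 moved from 0.86 to 0.45 for Vegfc, from 1.32 to 0.73 for Dkk2 and from 0.51 to 0.25 for Tm4sf1. Tm4sf1 and Igfbp3 were higher in 3 of 4 libraries. Of 13 Notch genes 0 passed the edgeR threshold, where 449 of all genes had an unadjusted p under 0.05.

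The share of arterial cells among non-cycling Fabp4 cells was compared between genotypes at equal depth. After thinning to 4000 UMIs, 45 of 244, 30 of 120, 30 of 174 and 39 of 263 cells met the connexin limit, or 18.4% (95% exact interval 13.8 to 23.9), 25.0% (17.5 to 33.7), 17.2% (11.9 to 23.7) and 14.8% (10.8 to 19.7). Control means were 21.7 ± 4.64% (SD, n = 2) and eKO means 16.0 ± 1.71% (SD, n = 2), a difference of -5.69 points (exact permutation p = 0.333, the lowest that 2 against 2 libraries allow). Both eKO libraries lay below both controls, control 1 and eKO 1 by little. With all UMIs the shares were 34.0, 38.1, 26.3 and 19.9%, a difference of -12.9 points, and at 2000 UMIs the difference was -1.76 points (exact permutation p = 0.667), so the size moved with depth. With at least 3 connexin UMIs it was -2.14 points (exact permutation p = 0.667), with eKO 1 at 14.4% above control 2 at 14.2%, and with Fabp4 at 0.2% it was -3.47 points. Without control 1 it was -8.96 points and without control 2 it was -2.41 points. Cells too shallow to thin, 11, 5, 16 and 107 Fabp4 cells, were left out, most of them in eKO 2, and thinning moves some cycling cells below the limit for Top2a and Mki67.

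The share of cycling cells was compared between Fabp4 cells with and without connexins, with the limit on Top2a and Mki67 lifted. At 4000 UMIs, the cells with at least 2 UMIs of Gja4 and Gja5 held more than 1 UMI of Top2a and Mki67 in 7 of 52, 0 of 30, 3 of 33 and 3 of 42 cases, or 13.5% (95% exact interval 5.59 to 25.8), 0% (up to 11.6), 9.09% (1.92 to 24.3) and 7.14% (1.5 to 19.5). Fabp4 cells with 0 connexin UMIs did so in 40.9, 49.7, 46.6 and 46.4% of 286, 157, 223 and 358 cells. Each of the 4 libraries showed the gap, whose mean was -38.5 points (exact sign-flip permutation p = 0.125, the lowest that 4 libraries allow). With all UMIs it was -25.2 points, with shares of 31.3, 31.5, 31.8 and 28.0% against 56.9, 63.2, 55.3 and 48.0%.

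**Figure D3:**
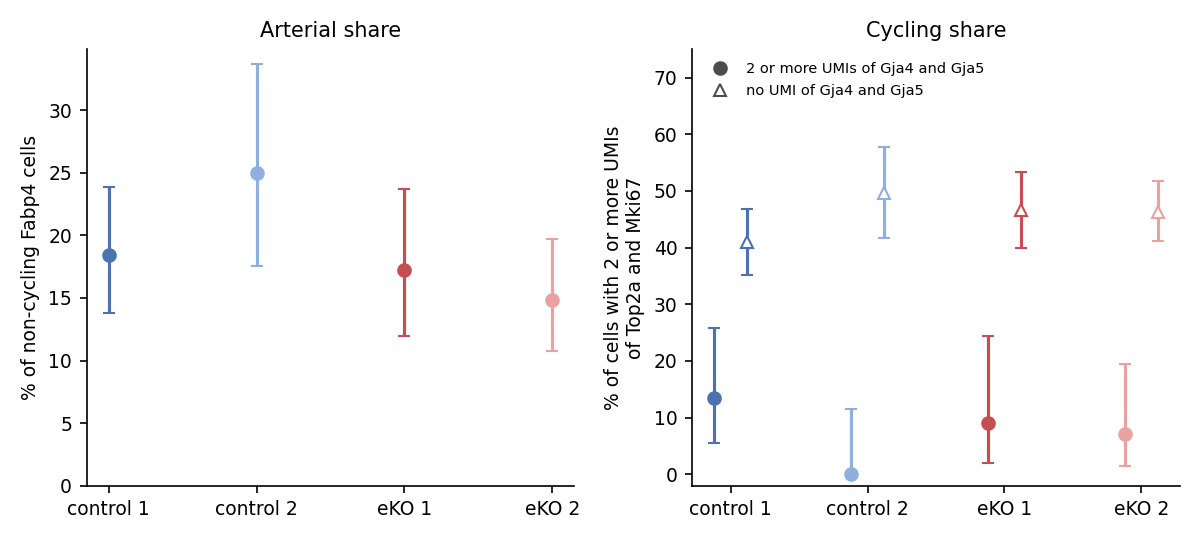
Share of arterial cells among non-cycling Fabp4 cells (left) and share of cells with more than 1 UMI of Top2a and Mki67 (right, with circles for at least 2 connexin UMIs and triangles for 0), in percent of cells thinned to 4000 UMIs. Each point is 1 library, such as 25.0% on the left for control 2, and bars are 95% exact intervals.

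Loss of endothelial Ets1 was examined in the arterial cells by comparing the eKO with the control libraries. Ets1 itself fell, as did the matrix genes Hmcn1 and Slit2, Vegfc, and the immediate early genes Fos, Fosb, Egr1 and Btg2. The metal-binding protein gene Mt1, and Shisa8, Igfbp7 and Lgals1, rose, while genes of arterial identity and Notch signalling mostly did not pass the test. Of 6461 genes tested, 72 passed in edgeR (1.11%), 25 higher in eKO (0.387%) and 47 lower (0.727%), with median log2 of 1.5 and -1.35 beside 0.025 for all genes tested. Libraries of the groups did not overlap for all 72 and for 2960 of all genes tested (45.8%). Called genes differed in length: the lower ones spanned a median of 263440 bases, the higher ones 10476 and all tested genes 28395, and the part of gene length in the calls was not tested. Scaling by total count gave 76 calls, 16 higher and 60 lower, and moved the median log2 by -0.109.

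With 2 libraries a group the count was unsteady. A fit without a library leaves 1 library in a group, which is assumed to vary like the others. The count was 82 without control 1, 51 without control 2, 340 without eKO 1 and 120 without eKO 2, and 14 by DESeq2, 146 without the filter on low counts, 7 in cells thinned to 4000 UMIs, 16 with at least 3 connexin UMIs and 139 with a sex term added after the data were seen, a fit whose units were 6 male or female parts of the 4 libraries, with parts of a library treated as replicates. Mt1, Shisa8, Igfbp7, Lgals1 and Hmcn1 passed in all 13 alternatives, and Trpm3 in the 11 that tested it. DESeq2 did not keep, among others, the calls of Ets1, Slit2, Vegfc, Ctnnd1, Ptprb, Hlx, Etv4, Tspan8, Apln, Tcf15, Inpp5d and Ndufs3 (adjusted p from 0.154 to 0.582), and it gave no adjusted p for Fbln5, Vcan, Fosb, Gpc6 and Gm3331. The fit on thinned cells tested 3500 genes, fewer than the main fit, and kept 7 calls. Those of Ets1, Egr1, Fos, Btg2, Fbln5, Tnni1 and Tnnt1 were not among the 7, being either lost or not tested.

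Ets1 (ENSMUSG00000032035, chr9:32636221-32757820, plus strand) measured 264 and 251 CPM in control arterial cells against 120.1 and 112 CPM in eKO arterial cells (log2 -1.04 ± 0.22 SE, edgeR adjusted p = 0.0228, both eKO libraries below both controls). Libraries of a group lay close together. The sources used do not state which exons are floxed, so the remaining counts, read near the 3' end, do not show whether the deleted part was read. The call was lost without control 1 (edgeR adjusted p = 0.118) or control 2 (0.0594). In lacking cells Ets1 measured 396 and 324 CPM in controls against 203 and 123 CPM in eKO (log2 -1.11 ± 0.23 SE, edgeR adjusted p = 0.0214), and the difference between the classes had a log2 of 0.11 (edgeR adjusted p = 0.953). Gm3331, a predicted gene at chr9:32813734-32834104 beside Ets1 and named after its values were seen, was at 0 and 0 CPM in controls against 39.3 and 28.9 CPM in eKO, at least 16.6-fold higher against a floor of 3 counts over the group (edgeR adjusted p = 4.09e-04, both libraries).

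Matrix and guidance genes that the study names were among the lower ones. Of its 3 matrix genes, 2 passed, a list chosen on these samples and so no independent evidence. Hmcn1 (ENSMUSG00000066842, chr1:150562524-150993435, minus strand), an extracellular hemicentin, measured 269 and 199 CPM in controls against 67.7 and 76.0 CPM in eKO (log2 -1.61 ± 0.25 SE, edgeR adjusted p = 9.46e-04, both eKO libraries below both controls). The groups stood far apart and the call held in each fit. Slit2 (ENSMUSG00000031558, chr5:47983138-48307733, plus strand), a secreted ligand of Robo receptors, measured 71.9 and 157 CPM against 21.8 and 47.0 CPM (log2 -1.49 ± 0.37 SE, edgeR adjusted p = 0.0488, both below). Control 2 was highest by far, and the call was lost without control 2 (edgeR adjusted p = 0.375). Col18a1 measured 1029 and 1100.2 CPM against 1111 and 799 CPM, with overlapping groups (log2 -0.0471, edgeR adjusted p = 0.947). Of the study's 6 angiogenesis genes 0 passed in edgeR, where 939 of all genes lay at an unadjusted p below 0.05 while DESeq2 made 14 calls. Kdr, the main VEGF receptor and 1 of the 6, stood at 629 and 698 CPM against 583 and 580.5 CPM, and Sox18, a SoxF factor, at 136 and 113 CPM against 37.1 and 110.3 CPM. Esm1 leaned the other way, at 41.5 and 64.4 CPM against 65.5 and 139 CPM (log2 1.15, edgeR adjusted p = 0.0861), and 3 of the 6 had a log2 above 0. The study reported both lists as lower in its whole coronary endothelial cluster, and the matrix genes also by in situ hybridization. Arterial cells are only a part of that endothelium. In lacking cells 0 of the 6 angiogenesis genes had a log2 above 0 (median -0.78), and 0 of the 3 matrix genes did (median -0.45).

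Trpm3 (ENSMUSG00000052387, chr19:22139046-22995410, plus strand), a cation channel gene, measured 81.0 and 183 CPM in controls against 10.9 and 10.9 CPM in eKO (log2 -3.38 ± 0.44 SE, edgeR adjusted p = 1.57e-04, both eKO libraries below both controls). Fbln5 (ENSMUSG00000021186, chr12:101746565-101819055, minus strand), a fibulin of elastic fibres, measured 41.5 and 38.2 CPM in controls against 0 and 1.81 CPM in eKO, where 1 UMI was counted (40.9-fold, 95% interval 7.06 to 1640.4, edgeR adjusted p = 8.97e-04, both below). Of the 10 tested genes of elastic and arterial wall matrix, Fbln5 alone passed. Vcan, a proteoglycan on the fibroblast list, measured 49.6 and 40.2 CPM against 0 and 10.9 CPM (7.83-fold, 95% interval 3.42 to 22.1, edgeR adjusted p = 0.0168, both below). Summed levels of the 11 fibroblast genes were 209, 139, 69.9 and 39.8 CPM. Col3a1 measured 38.5, 24.1, 28.4 and 10.9 CPM, below Vcan in both controls. Of the list 3 were tested and Vcan alone passed, and the part of stray fibroblast RNA was not tested. Leaving out eKO 2 moved the fitted log2 of Fbln5 to -7.69 and of Vcan to -7.88, as eKO 1 alone held 0 UMIs of either, and the call of Vcan was lost without control 1 (edgeR adjusted p = 0.122).

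Immediate early genes are switched on within minutes by growth factors, flow or stress. Of 17 genes tested on the list that holds them and heat shock genes, 4 passed, all lower in eKO, with a median log2 of -0.39 beside 0.025 for all genes. Fos (ENSMUSG00000021250, chr12:85473890-85477273, plus strand), a subunit of the AP-1 factor, measured 354 and 213 CPM in controls against 78.6 and 99.5 CPM in eKO (log2 -1.58 ± 0.26 SE, edgeR adjusted p = 0.00283, both eKO libraries below both controls). Egr1 (ENSMUSG00000038418, chr18:34859823-34864984, plus strand), a zinc finger factor, measured 301 and 195 CPM against 98.3 and 61.5 CPM (log2 -1.57 ± 0.27 SE, edgeR adjusted p = 0.00305, both below). Control 1 was highest for each. Fosb measured 47.6 and 44.2 CPM against 4.37 and 9.04 CPM (6.71-fold, 95% interval 3.09 to 17.3, edgeR adjusted p = 0.00653, both below), and Btg2, an antiproliferative gene of this class, 469.9 and 352 CPM against 157 and 188 CPM (log2 -1.15 ± 0.23 SE, edgeR adjusted p = 0.0148, both below). Calls ended for Fos without control 1 (edgeR adjusted p = 0.0526), for Fosb without control 1 (0.0711) and for Btg2 without control 1 (0.190). DESeq2 kept Fos, Egr1 and Btg2 and gave no adjusted p for Fosb.

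Few arterial identity genes passed the test. Of 25 listed genes tested, Vegfc was lower, Tspan8 higher and 23 did not pass, with a median log2 of -0.28 beside 0.025. Vegfc measured 506 and 698 CPM in controls against 288 and 306 CPM in eKO (log2 -0.90 ± 0.22 SE, edgeR adjusted p = 0.0469, both eKO libraries below both controls). Tspan8, a tetraspanin, measured 47.6 and 34.2 CPM against 100.4 and 88.6 CPM (log2 1.26 ± 0.28 SE, edgeR adjusted p = 0.0303, both above). The calls were lost for Vegfc without control 1 (edgeR adjusted p = 0.0669) or control 2 (0.544) and for Tspan8 without control 2 (0.181). Of 17 Notch genes 0 passed in edgeR, where 939 of all genes lay at an unadjusted p below 0.05 while DESeq2 made 14 calls, and the median log2 of the list was -0.30. Dll4 measured 194 and 189 CPM against 135 and 139 CPM (log2 -0.37, edgeR adjusted p = 0.448). Among 16 SoxF and ETS genes, Ets1 was lower and Etv4 higher, the latter at 16.2 and 20.1 CPM against 54.6 and 41.6 CPM (log2 1.53 ± 0.37 SE, edgeR adjusted p = 0.0469, both above), a call lost without control 1 (edgeR adjusted p = 0.20) or eKO 1 (0.0883).

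Junctions hold endothelial cells together and set the tightness of the vessel wall. Of 14 junction genes tested, 2 were lower and 0 higher, with a median log2 of -0.21. Ctnnd1, a catenin that holds cadherins at the membrane, measured 179 and 225 CPM in controls against 98.3 and 94.0 CPM in eKO (log2 -0.94 ± 0.23 SE, edgeR adjusted p = 0.0469, both eKO libraries below both controls). Ptprb, the vascular endothelial phosphatase VE-PTP, measured 346 and 451 CPM against 221 and 177 CPM (log2 -0.88 ± 0.22 SE, edgeR adjusted p = 0.0488, both below). Both adjusted values were close to the threshold. Neither was steady, with calls lost for Ctnnd1 without control 1 (edgeR adjusted p = 0.0602), control 2 (0.363) or eKO 2 (0.0550) and for Ptprb without control 1 (0.0755), control 2 (0.515) or eKO 2 (0.0744). Lists of BMP signalling (12 tested), flow response (10), basement membrane (14), venous (8), endocardial (7), S phase (11) and imprinted genes (9) held 0 calls in edgeR, where 939 of all genes had an unadjusted p under 0.05 (14 calls in all by DESeq2).

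Among genes higher in eKO, Mt1 (ENSMUSG00000031765, chr8:94179082-94180327, plus strand), a metallothionein that binds zinc and copper, went from 3.04 and 2.01 CPM in controls to 428 and 242 CPM in eKO, with 4 UMIs in the control cells (121-fold, 95% interval 46.9 to 447, edgeR adjusted p = 4.09e-10, both eKO libraries above both controls). Shisa8 (ENSMUSG00000096883, chr15:82206168-82212815, minus strand), of the Shisa family of membrane proteins, measured 7.09 and 8.05 CPM against 67.7 and 54.3 CPM (log2 3.1 ± 0.41 SE, edgeR adjusted p = 1.57e-04, both above). The groups lay far apart for each. Igfbp7 (ENSMUSG00000036256, chr5:77349240-77408041, minus strand), a secreted protein of vessel basement membranes, measured 63.8 and 74.4 CPM against 284 and 206 CPM (log2 1.94 ± 0.24 SE, edgeR adjusted p = 7.84e-05, both above). Lgals1 (ENSMUSG00000068220, chr15:78926725-78930465, plus strand), a galactoside-binding lectin, measured 301 and 292 CPM against 790.4 and 796 CPM (log2 1.53 ± 0.21 SE, edgeR adjusted p = 2.11e-04, both above). These 4 calls held without each library in turn. Apln (ENSMUSG00000037010, chrX:48025146-48034853, minus strand), the ligand of Aplnr made by sprouting endothelium, was higher at 56.7 and 60.3 CPM against 105 and 114 CPM (log2 1.02 ± 0.25 SE, edgeR adjusted p = 0.0469, both above), and Hlx, a homeobox factor, at 19.2 and 36.2 CPM against 50.2 and 90.4 CPM (log2 1.58 ± 0.36 SE, edgeR adjusted p = 0.0366, both above). These last calls were lost for Apln without control 1 (edgeR adjusted p = 0.249), control 2 (0.190) or eKO 2 (0.0806) and for Hlx without control 1 (0.250) or eKO 2 (0.249).

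Few genes of the metabolic lists passed. Of 9 fatty acid genes tested, 2 passed, both higher. Fabp5, a fatty acid-binding protein related to Fabp4, measured 2679.8 and 2550.3 CPM in controls against 4505 and 5297 CPM in eKO (log2 1.02 ± 0.22 SE, edgeR adjusted p = 0.0277, both eKO libraries above both controls), and Tcf15, the partner of Meox2, 227 and 187 CPM against 345 and 367 CPM (log2 0.88 ± 0.21 SE, edgeR adjusted p = 0.0469, both above). Of 51 nuclear respiratory chain genes, Ndufs3, a subunit of complex I, passed at 102 and 82.5 CPM against 162 and 177 CPM (log2 0.96 ± 0.23 SE, edgeR adjusted p = 0.0469, both above), and the list's median log2 was 0.28 beside 0.025. None of these held in each fit, with calls lost for Fabp5 without control 1 (edgeR adjusted p = 0.338) or control 2 (0.522), for Tcf15 without control 1 (0.142) or control 2 (0.517) and for Ndufs3 without control 1 (0.0875), control 2 (0.392) or eKO 2 (0.0550). Of 13 glycolysis genes 0 passed in edgeR (median log2 0.47), beside 939 of all genes at an unadjusted p under 0.05 and 14 calls by DESeq2. The 13 mitochondrial genes, used by the rule and so untested, summed to 25392, 26106, 19522 and 18424 CPM, a sum lower in both eKO libraries. Not each gene followed the sum, with mt-Nd4l at 176, 167, 314 and 143 CPM.

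Cardiomyocyte RNA was present at low level. Tnni1, a slow skeletal and fetal heart troponin, measured 67.9 and 54.3 CPM in control arterial cells against 209.6 and 239 CPM in eKO (log2 1.95 ± 0.24 SE, edgeR adjusted p = 7.84e-05, both eKO libraries above both controls), and Tnnt1, of the same complex, 32.4 and 54.3 CPM against 111 and 128 CPM (log2 1.66 ± 0.28 SE, edgeR adjusted p = 0.00294, both above). The Tnnt1 call was lost without control 1 (edgeR adjusted p = 0.0719). Of 14 cardiomyocyte markers 9 were tested and Tnni1 alone passed. All 9 had a log2 above 0, with a median of 0.46 beside 0.025 for all genes tested. In lacking cells 12 of 13 tested had a log2 above 0 (median 0.27). Their summed level was 809, 722, 862 and 1295 CPM, led by Tpm1 at 282, 332, 328 and 351 CPM, and 0 of the 14 were at 0 in all libraries. Summed levels were thus highest in eKO 2, in which Tnni1 was highest too, while eKO 1 lay near control 1 in the sum and high in Tnni1. The part of cardiomyocyte RNA in the Tnni1 change was not tested.

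**Figure D4:**
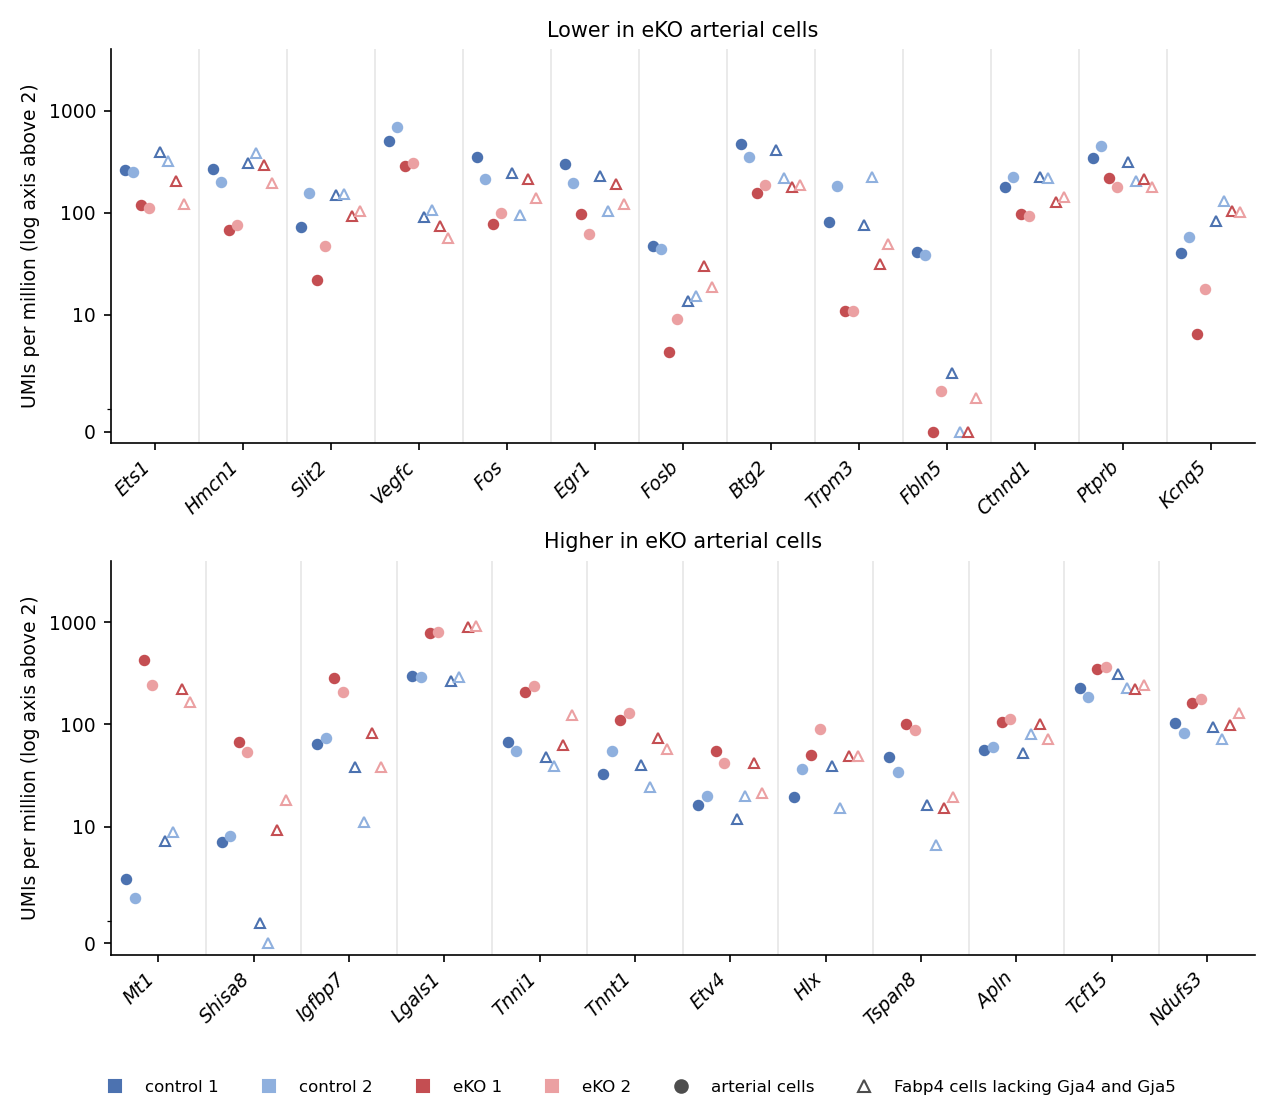
Level in CPM of genes lower (top) and higher (bottom) in eKO arterial cells, on an axis that is logarithmic above 2, with filled circles for arterial cells and open triangles for lacking cells. Each point is the summed cells of 1 library (2 control and 2 eKO libraries, no error bars), with Ets1 at 264 and 251 CPM in control and 120.1 and 112 CPM in eKO arterial cells.

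Promoters of called genes were searched for the ETS core motif, since Ets1 binds sequences with GGAA. Each sequence covers 250 bases before to 50 after a gene's start in RefSeq on GRCm38.p6, and GGAAGT and the longer CCGGAAGT, which contains it, were sought on both strands. GGAAGT was in 7809 of 32851 promoters (23.8%) and CCGGAAGT in 1277 (3.89%). Of genes tested in arterial cells 5201 had a promoter, with shares of 34.0 and 10.6%. Of 47 genes lower in eKO 36 had one, with GGAAGT in 11 (30.6%) and CCGGAAGT in 2 (5.56%), and of 25 higher genes 17 had one, with both motifs in 1 (5.88%), that of Ndufs3. The shares of called genes were thus no higher than those of tested genes. Promoters of 4 genes lower in eKO are given as examples of matched letters, which are no evidence of binding, with the motif or its reverse complement in capitals, all on the plus strand: Fos at chr12:85473640-85473939, Inpp5d, a phosphatase gene with 2 matches, at chr1:87620062-87620361, and Arl5b and Zbtb11, which hold CCGGAAGT, at chr2:15055070-15055369 and chr16:55973554-55973853. Inpp5d measured 46.6 and 74.4 CPM in controls against 21.8 and 12.7 CPM in eKO (log2 -1.65 ± 0.39 SE, edgeR adjusted p = 0.0469, both below), a call lost without control 2 (edgeR adjusted p = 0.182) or eKO 2 (0.133).
Fos: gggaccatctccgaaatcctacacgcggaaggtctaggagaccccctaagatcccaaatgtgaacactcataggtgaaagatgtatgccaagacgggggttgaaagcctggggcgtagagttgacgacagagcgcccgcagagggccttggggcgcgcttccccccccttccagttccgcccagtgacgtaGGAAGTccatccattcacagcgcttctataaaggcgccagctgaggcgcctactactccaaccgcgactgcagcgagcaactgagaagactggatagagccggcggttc
Inpp5d: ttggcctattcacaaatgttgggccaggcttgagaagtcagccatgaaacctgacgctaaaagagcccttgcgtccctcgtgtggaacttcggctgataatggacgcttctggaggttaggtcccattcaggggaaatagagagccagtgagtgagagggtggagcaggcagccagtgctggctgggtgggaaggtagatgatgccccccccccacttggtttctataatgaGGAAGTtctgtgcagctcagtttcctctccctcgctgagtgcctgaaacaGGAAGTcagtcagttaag
Arl5b: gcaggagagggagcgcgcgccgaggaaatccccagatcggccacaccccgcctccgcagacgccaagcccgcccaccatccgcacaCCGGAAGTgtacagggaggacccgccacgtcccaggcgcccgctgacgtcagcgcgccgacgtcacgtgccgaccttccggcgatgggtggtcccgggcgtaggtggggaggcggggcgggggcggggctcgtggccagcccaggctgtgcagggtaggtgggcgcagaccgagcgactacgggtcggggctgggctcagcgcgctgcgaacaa
Zbtb11: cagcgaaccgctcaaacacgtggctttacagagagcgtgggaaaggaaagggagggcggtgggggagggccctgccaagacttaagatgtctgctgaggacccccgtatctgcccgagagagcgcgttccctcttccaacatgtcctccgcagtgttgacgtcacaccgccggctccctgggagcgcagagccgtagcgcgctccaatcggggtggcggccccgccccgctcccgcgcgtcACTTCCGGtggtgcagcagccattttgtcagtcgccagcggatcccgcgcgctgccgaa

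The eKO and control libraries were also compared within lacking cells, to see which changes of arterial cells were shared by other coronary endothelium. Ets1, Trpm3, Mt1 and Lgals1 passed in both classes, not all of them steadily. Fos, Egr1 and Hmcn1 were lower by more in arterial cells, though none of these differences passed in each fit. Of 8566 genes tested in lacking cells, 37 passed (0.432%), 26 higher in eKO (0.304%) and 11 lower (0.128%) by edgeR. The higher ones include the hemoglobin genes Hbb-bt, Hba-a1, Hba-a2, Hbb-y and Hbb-bs, which were high in eKO 2 alone. Hbb-bs measured 81.8, 30.7, 52.2 and 3329 CPM, and leaving out eKO 2 moved its log2 from 4.86 to -0.22. Of the 72 arterial calls 69 were tested there, 55 had the same sign (79.7%, beside 4240 of the 6424 genes tested in both classes, 66.0%) and 10 passed, 9 of them the same way: Mt1, Gm3331, Aebp1, Lgals1, Ncam1 and Rcn3 higher, and Ets1, Trpm3 and Cdc42ep3 lower. These were 6 of 25 higher arterial calls (24.0%, 23.1% of the 26) and 3 of 47 lower ones (6.38%, 27.3% of the 11). Gpc6 passed in opposite directions. Within lacking cells calls were lost for Ets1 without control 1 (edgeR adjusted p = 0.287), for Trpm3 without control 2 (0.403), for Cdc42ep3 without control 1 (0.341), for Aebp1 without control 1 (0.329), for Ncam1 without control 1 (0.0741), for Rcn3 without control 1 (0.115) and for Gpc6 without eKO 1 (0.151), and DESeq2 called none of these genes there (adjusted p from 0.128 to 1.000). Leaving out control 2 moved the log2 of Trpm3 from -1.66 to -0.80, and leaving out eKO 1 that of Gpc6 from 2.46 to 1.41. Leaving out control 1 moved that of Cdc42ep3 to -1.13. Both comparisons use the same libraries. The count in lacking cells was 31 without control 1, 80 without control 2, 121 without eKO 1 and 88 without eKO 2, and 6 by DESeq2.

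Mt1 in lacking cells measured 7.27 and 8.77 CPM in controls against 221 and 164 CPM in eKO (log2 4.67 ± 0.32 SE, edgeR adjusted p = 2.31e-09, both eKO libraries above both controls). The eKO level was higher in arterial than in lacking cells in each eKO library. The difference of the eKO effect between the classes did not pass for Mt1 (log2 2.28 ± 0.75 SE, edgeR adjusted p = 0.329), with 4 UMIs in control arterial cells. Gm3331 was at 0 in both control libraries of lacking cells and 77.7 and 60.2 CPM in eKO, at least 34.8-fold higher (edgeR adjusted p = 2.87e-07). Sox18 was lower in lacking cells, at 129 and 83.3 CPM against 37.1 and 51.2 CPM (log2 -1.23 ± 0.25 SE, edgeR adjusted p = 0.0166, both below), and Mgp higher, at 25.5 and 19.7 CPM against 73.0 and 98.6 CPM (log2 1.94 ± 0.28 SE, edgeR adjusted p = 0.00105, both above). Calls were lost for Sox18 without control 1 (edgeR adjusted p = 0.654) and for Ets1 without control 1 (0.287).

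The eKO effect itself was tested for a difference between the classes. Of 8170 genes tested, 36 passed (0.441%), 5 with a higher effect in arterial cells (0.0612%) and 31 with a lower one (0.379%) by edgeR. The lower ones spanned a median of 227361 bases, the higher ones 8440 and all tested genes 28388.5, and the part of gene length was not tested. DESeq2 made 0 calls, with 72 genes at an unadjusted p under 0.05 against 649 in edgeR, cells thinned to 4000 UMIs gave 7, and the count was 76 without control 1, 83 without control 2, 35 without eKO 1 and 19 without eKO 2. Gpc6, a glypican, and Egr1 passed without each library in turn. In thinned cells Egr1 did not pass (log2 -1.16, edgeR adjusted p = 0.28) and Gpc6 had no value. Among the 72 arterial calls, 16 also passed here in the main fit, Mgll and Tcf15 higher and 14 lower.

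Egr1 fell in arterial cells (both eKO libraries below both controls), while lacking cells measured 231 and 105 CPM in controls against 192 and 122 CPM in eKO, so the groups overlapped there (log2 -1.46 ± 0.24 SE, edgeR adjusted p = 0.00115 for the difference). Fos in lacking cells measured 248 and 94.3 CPM against 212 and 139 CPM, again overlapping (log2 -1.58 ± 0.26 SE, edgeR adjusted p = 0.00113 for the difference). Control 1 was highest in both classes for each gene. Gpc6 (ENSMUSG00000058571, chr14:116925315-117976544, plus strand) was lower in eKO arterial cells, at 27.3 and 42.2 CPM against 4.37 and 3.62 CPM (edgeR adjusted p = 0.0228, 8.17-fold, 95% interval 2.99 to 31.2, both below), and higher in eKO lacking cells, a call lost there without eKO 1 (edgeR adjusted p = 0.151), at 10.9 and 11 CPM against 95.1 and 27.9 CPM (log2 -5.31 ± 0.65 SE, edgeR adjusted p = 1.41e-05 for the difference). Hmcn1 in lacking cells measured 310.0 and 384 CPM against 291 and 196 CPM (log2 -1.18 ± 0.26 SE, edgeR adjusted p = 0.0250 for the difference), so its drop was larger in arterial cells. This difference moved to -0.68 without control 1 and -0.81 without eKO 1, and to -1.47 without control 2 and -1.55 without eKO 2. Tcf15 measured 308 and 228 CPM against 224 and 245 CPM in lacking cells (log2 1.04 ± 0.19 SE, edgeR adjusted p = 0.00203 for the difference), and was higher in eKO among arterial cells. Calls of a difference were lost for Fos without eKO 1 (edgeR adjusted p = 0.0786), for Hmcn1 without control 1 (0.347) or eKO 1 (0.577) and for Tcf15 without eKO 2 (0.0626), and the call of Gpc6 within arterial cells without control 1 (edgeR adjusted p = 0.0511), control 2 (0.339) or eKO 2 (0.0582).

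**Figure D5:**
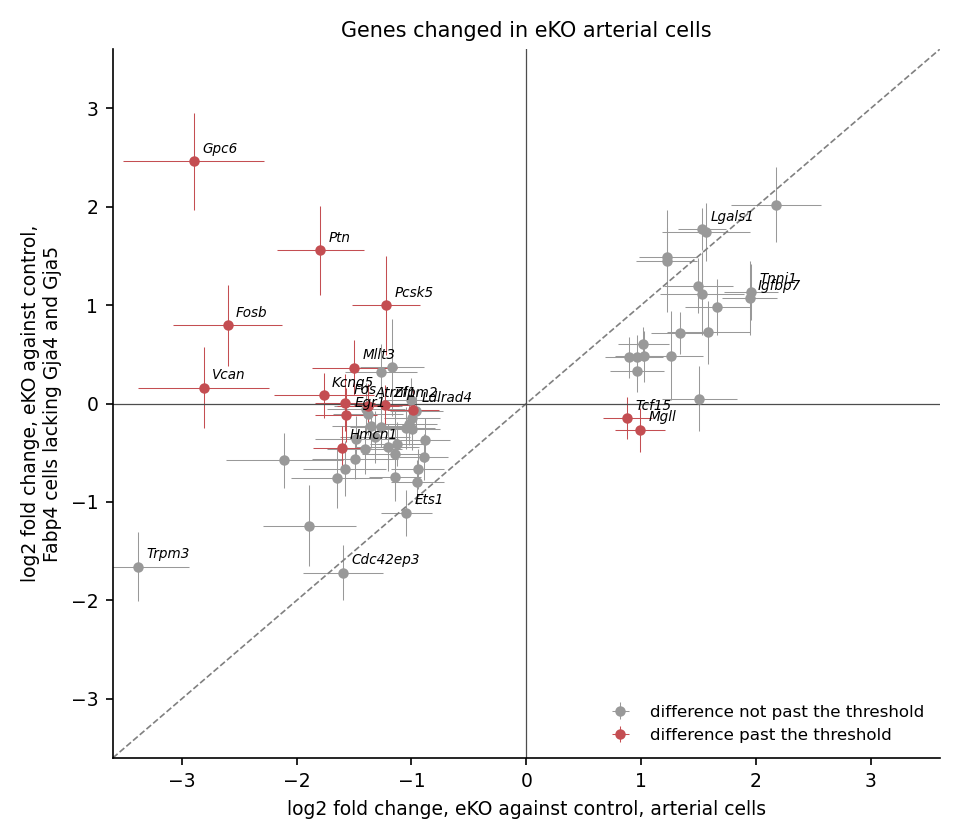
Log2 difference of eKO from control in arterial cells (horizontal) and lacking cells (vertical) for 66 arterial calls tested in both, with bars of 1 standard error from 2 libraries a group and a dashed line of equal change. Red points mark genes whose difference between the classes passed, and Mt1 and Gm3331 lie outside the axes.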

How the data were processed

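Single-cell 3' libraries of E14.5 mouse ventricles were used, 2 control and 2 eKO. The authors deposited raw UMI counts per gene and barcode, made with Cell Ranger 7.1.0 on mm10, and in their own analysis used Seurat 4.3.0 with at least 200 genes and at most 20% mitochondrial UMIs per cell. For that analysis they also corrected ambient RNA with CellBender and removed doublets with DoubletFinder, steps not visible in the whole counts used here. Members and gene lists were chosen with earlier results of these data known.

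Cells were chosen by the rule given above with Python 3.11.15 (scipy 1.17.1, matplotlib 3.10.9, numpy 2.4.6, scikit-learn 1.9.0 and pandas 2.3.3), and their counts summed per library, the unit of every test except the fit with a sex term, which used 6 parts of the 4 libraries. In R 4.3.3, edgeR 4.0.16 (limma 3.58.1) fitted quasi-likelihood models with TMM scaling and filterByExpr, adjusted by Benjamini-Hochberg at 0.05, after tests on simulated data. Genes used by the rule were taken out after library sizes were computed. Library was a term wherever classes of the same libraries were compared. Shares were tested by exact permutation of libraries after thinning every cell to 4000 UMIs. With 987377, 497197, 457984 and 552973 arterial UMIs, 1 UMI equals 1.01, 2.01, 2.18 and 1.81 CPM, which limits genes of low level.

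Named genes are those of the rule, Ets1, 11 genes of the study, sex-linked genes, the largest changes past the threshold in each direction (mean of 20 CPM or more, groups apart or all libraries alike), and up to 6 members past the threshold by smallest p of each list, or its most abundant member. Other genes were chosen after their values were seen. Genes with at most 10 UMIs in a group are given as folds with 95% exact intervals, and genes at 0 against a floor of 3 counts.

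Each result was also computed, where it applied, with DESeq2 1.42.0, with total counts in place of TMM, with every gene that had a count, with a replicate block, without the library term, on thinned cells, with at least 3 connexin UMIs, with Fabp4 at 0.2%, after removal of the barcodes with the highest doublet scores (0.8% per 1000 barcodes, kept otherwise), and without each library. A sex term and the alternatives for lacking cells were chosen after seeing the data. Barcodes outside the rule were not tested. Of the genes whose eKO effect differed between classes, 1 is not named or drawn here.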

Additional observations from a re-analysis of the deposited data

Results flagged for a closer look

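In 36 genes the eKO effect differed between arterial and lacking cells by edgeR at an adjusted p of at most 0.05, a difference between groups. Values are log2 of the arterial effect less the effect in lacking cells, and brackets give each library without which the call was lost, with the edgeR adjusted p of that fit.

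The phosphodiesterase gene Pde1a measured 22.3, 16.1, 0 and 0 CPM in arterial cells and 4.55, 2.19, 2.32 and 10.5 CPM in lacking cells, and Negr1, a neuronal adhesion molecule, 22.3, 6.03, 0 and 0 CPM and 7.27, 13.2, 25.5 and 12.0 CPM. Both were at 0 in eKO arterial cells, at least 6.81- and 5.67-fold below the controls against a floor of 3 counts. Their fitted differences, Pde1a -7.88 (eKO 2 0.868) and Negr1 -7.75 (control 1 0.328 and eKO 1 0.212), depend on the prior count of the fit and are no bound. Pde1a did not meet the filter without control 1.

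Hemoglobin genes differed through 1 library of lacking cells. Hbb-bs measured 55.7, 14.1, 52.4 and 57.9 CPM in arterial cells and 81.8, 30.7, 52.2 and 3329 CPM in lacking cells, and the differences were Hbb-bt -5.44 (control 1 0.361 and eKO 2 0.984), Hba-a1 -5.13 (eKO 2 0.966), Hba-a2 -4.13 (eKO 2 1.000), Hbb-bs -4.12 (eKO 2 0.939) and Hbb-y -3.64 (eKO 2 0.905).

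Among genes of matrix, adhesion and secreted proteins the differences were Pcdh9 -5.87 (control 2 0.116 and eKO 2 0.258), Col1a2 -4.58 (eKO 2 0.103), Eln -4.44 (control 2 0.262, eKO 1 0.195 and eKO 2 0.452), Dcn -3.97 (control 1 0.550 and eKO 2 0.497), Vcan -3.01 (eKO 1 0.144), Ptn -3.35 (eKO 2 0.487) and Mgp -2.05 (control 1 0.427 and eKO 2 0.403). Col1a2, Dcn and Vcan are on the fibroblast list, whose summed level was 209, 139, 69.9 and 39.8 CPM in arterial cells and 174, 83.3, 197 and 275 CPM in lacking cells, lower in eKO in the former and higher in the latter. Arterial counts in eKO were few for some of these genes, with control over eKO folds (95% exact intervals) of 14.3 (2.30 to 591) for Pcdh9, 8.17 (2.58 to 41.5) for Col1a2, 12.3 (3.16 to 105) for Eln, 9.87 (2.50 to 85.4) for Dcn and 7.83 (3.42 to 22.1) for Vcan. Leaving out eKO 1 moved Col1a2 to -9.32 and Dcn to -7.82, and leaving out eKO 2 moved Vcan to -8.01. In each of these fits the eKO arterial library left held 0 UMIs. Ptn moved to -1.54 without eKO 2 and to -5.62 without control 1. Among transcription factors and nuclear genes they were Fosb -3.40 (eKO 1 0.0944), Fos -1.58 (eKO 1 0.0786), Egr1 -1.46, Zeb2 -1.30 (control 1 0.0746, eKO 1 0.0944 and eKO 2 0.214), Zfpm2 -1.24 (control 1 0.110 and eKO 2 0.503), Mecom -0.84 (eKO 1 0.531) and Mllt3 -1.79 (control 2 0.0517 and eKO 2 0.639). Egr1 held without each library, as did Gpc6 of the next group, Gpc6 -5.31, Hmcn1 -1.18 (control 1 0.347 and eKO 1 0.577), Pcsk5 -2.30 (control 1 0.211 and eKO 1 0.322), Nos1ap -1.87 (control 1 0.230 and eKO 2 0.524), Kcnq5 -1.86 (control 1 0.0715 and eKO 1 0.567), Nckap5 -1.62 (eKO 1 0.0786), Atrnl1 -1.29 (control 2 0.0895 and eKO 1 0.567), Ldlrad4 -0.91 (eKO 2 0.565) and Gab2 -0.87 (control 2 0.107, eKO 1 0.495 and eKO 2 0.336). Genes with a higher effect in arterial cells were Tcf15 1.04 (eKO 2 0.0626), Ccnd1 1.07 (eKO 1 0.0772 and eKO 2 0.231), Gpihbp1 1.26 (eKO 2 0.0651), Mgll 1.29 (control 1 0.148 and eKO 2 0.497) and Esm1 2.12 (control 1 0.399 and eKO 2 0.0865). Gpihbp1, which carries lipoprotein lipase to capillaries, measured 209, 205, 209.6 and 179 CPM in arterial cells and 286, 228, 122 and 93.3 CPM in lacking cells, so that it was lower in eKO among lacking cells only, where it passed (edgeR adjusted p = 0.00469), a call lost without control 1 (edgeR adjusted p = 0.112).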

How the results depend on the processing

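Groups of 2 libraries, each a pool of 3 embryos, give few degrees of freedom, and sex differed between libraries. A fit without a library leaves 1 library in a group, assumed to vary like the others. Shallow cells limit genes of low level and shares, most in eKO 2. Arterial cells and lacking cells are told apart by few connexin UMIs, and a cell of low depth can miss them. The cause of the shifts below was not tested.

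In arterial cells the 72 calls became 14 by DESeq2 (9 higher, 5 lower), 146 without a filter (55 and 91), 7 in thinned cells (5 and 2), 16 with at least 3 connexin UMIs (10 and 6), 139 with a sex term (33 and 106, chosen after seeing the data) and 51 to 340 without 1 library. Total count scaling gave 76, Fabp4 at 0.2% 58 and removal of doublets 94. The replicate block gave 123 (47 and 76). Libraries with the same number share only that number, and their deviations had a correlation of -0.039 over 6461 genes.

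In lacking cells, with alternatives chosen after seeing the data, 37 calls became 6 by DESeq2, 91 without a filter, 38 with total counts and 31 to 121 without 1 library. Between classes, 1617 became 633 by DESeq2, 902 without the library term, 830 in thinned cells, 1840 without a filter, 1487 with at least 3 connexin UMIs, 1491 with Fabp4 at 0.2%, 1653 without doublets and 1150 to 1657 without 1 library. For the difference of effects, 36 became 0 by DESeq2 (72 at an unadjusted p under 0.05), 62 without a filter, 7 in thinned cells, 53 with total counts and 19 to 83 without 1 library. For Gja5, 73 became 7 by DESeq2, 113 without a filter, 1 without the library term, 75 with total counts and 10 to 69 without 1 library. Share differences kept their sign, at -12.9 to -1.76 points for arterial cells and -42.2 to -22.9 for cycling cells.

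Of 752 values of 60 named genes in arterial cells under alternatives, 579 kept direction and side, 24 gained a call, 117 lost it and 32 changed direction (the cause was not tested). Between classes these were 1390, 4, 160 and 14 of 1568 values, for the difference 114, 0, 68 and 2 of 184, and for Gja5 122, 0, 83 and 0 of 205.

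Direction turned in arterial cells without 1 library for Col18a1 (log2 -0.27 to 0.17), Cldn5 (-0.30 to 0.31), Xist (-0.25 to 10.40), Ddx3y (-3.73 to 0.13), Plxnd1 (-0.0907 to 0.20), Id3 (-0.42 to 0.31), Gja1 (-0.0801 to 0.0506), Malat1 (-0.62 to 0.22), Abcc9 (-0.0764 to 0.11) and Laptm5 (-0.98 to 0.34). It turned with total counts for Cldn5 (-0.0821), Plxnd1 (-0.0697), Mcm6 (-0.0202) and Abcc9 (-0.10), with a sex term for Xist (-0.40), Ddx3y (0.0282), Gja1 (0.19) and Mcm6 (-0.00668), with at least 3 connexin UMIs for Plxnd1 (-0.00702), Id3 (0.0558), Gja1 (0.0538) and Abcc9 (-0.0897), with Fabp4 at 0.2% for Plxnd1 (-0.0289) and Id3 (0.16), and without doublets for Gja1 (0.0180) and Abcc9 (-0.0440).

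Between classes direction turned for Uty (log2 -0.31 to 0.0339 without 1 library, 0.0441 without the library term, 0.0164 with at least 3 connexin UMIs), Cdh11 (0.36 with Fabp4 at 0.2%), Wt1 (-0.0419 to 0.14 without 1 library, -0.00596 with total counts, -0.0265 in thinned cells, -0.0136 with Fabp4 at 0.2%), Hbb-bt (-5.02 to 0.0525 without 1 library), Hba-a1 (-4.29 to 0.15, 0.00395 without doublets) and Hbb-y (-1.88 to 0.57, 0.20 in thinned cells, 0.0764 without doublets). The difference of effects turned for Hbb-bs (-5.15 to 0.70) and Hba-a2 (-4.80 to 0.0412) without 1 library.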

Other observations

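Imprinted genes, of which only the maternal or the paternal copy is read, were found on both sides of the comparison of arterial with lacking cells. Of 10 tested, 3 were higher in arterial cells (Cdkn1c, H19 and Igf2) and 4 lower (Airn, Grb10, Igf2r and Meg3). The noncoding RNA H19 measured 1909, 1603, 2304 and 1794 CPM against 1044, 1328, 1543 and 1317 CPM (log2 0.62 ± 0.08 SE, edgeR adjusted p = 3.20e-06, higher in 4 of 4 libraries), and Igf2, the growth factor gene beside it, 767, 642, 1149 and 855 CPM against 573, 541, 776 and 647 CPM (log2 0.49 ± 0.08 SE, edgeR adjusted p = 6.72e-05, 4 of 4). Igf2r, a receptor that removes Igf2, was lower in arterial cells, at 156, 153, 207 and 152 CPM against 260.0, 298, 332 and 251 CPM (log2 -0.69 ± 0.11 SE, edgeR adjusted p = 3.77e-05, 4 of 4), as was Airn, the noncoding RNA read from within Igf2r, at 552, 752, 461 and 421 CPM against 925, 1085, 981 and 809 CPM (log2 -0.75 ± 0.09 SE, edgeR adjusted p = 3.01e-07, 4 of 4). Ligand and receptor thus differed in opposite directions in every library.

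Fdps and Cyp51, enzymes of sterol synthesis chosen after their values were seen, were higher in eKO arterial cells. Fdps, an enzyme that makes farnesyl diphosphate, measured 85.1 and 94.5 CPM in controls against 162 and 251 CPM in eKO (log2 1.33 ± 0.25 SE, edgeR adjusted p = 0.00653). Cyp51, a lanosterol demethylase, measured 29.4 and 32.2 CPM in controls against 76.4 and 83.2 CPM in eKO (log2 1.5 ± 0.30 SE, edgeR adjusted p = 0.0155), a call lost without control 1 (edgeR adjusted p = 0.0695) and by DESeq2 (adjusted p = 0.270). Hmgcs1, of an early step of the same pathway, did not pass, at 50.6 and 52.3 CPM in controls against 89.5 and 86.8 CPM in eKO (log2 0.89 ± 0.27 SE, edgeR adjusted p = 0.113).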
